A study of Arabidopsis thaliana with 8 samples.

Results

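The 10 genes described here encode the small subunits of Rubisco (RBCS1A, RBCS1B, RBCS2B and RBCS3B), Rubisco activase (RCA) and 5 enzymes of the Calvin cycle (PRK, SBPASE, HCEF1, GAPA and GAPB). They were taken by locus name from the non-control probes of the arrays, 10 of the 25665 loci that the probes name, and each had 1 probe. The study compared whole seedlings of Arabidopsis thaliana (ecotype Columbia-0), 2 weeks old, that carry WIN1 behind the 35S promoter and a NOS sequence (35S:WIN1) with seedlings titled vector control, given as wild type in the genotype field. The 35S promoter, taken from a plant virus, is active in most tissues, so the transgene was not limited to 1 cell type, and the labels do not say how many independent lines each group held. All seedlings grew on MS agar with 1% sucrose, in 16 h of light and 8 h of dark at 23 degrees Celsius, so both groups had an external sugar supply. Each group had 4 samples, and each sample was hybridised to its own 1-colour array.

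The Calvin cycle runs in the chloroplast stroma and fixes carbon dioxide with energy and reducing power from the light reactions. Rubisco, built of a large subunit encoded in the chloroplast and small subunits encoded in the nucleus, attaches carbon dioxide to ribulose bisphosphate, and the product is reduced to triose phosphate. Most of that triose phosphate is turned back into the acceptor, and the rest leaves for starch and sucrose. In green tissue these genes are among the most strongly expressed of all and are induced by light.

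On the 35S:WIN1 arrays the 75th percentile of the processed signal was 996.7, 1269, 2273 and 2490 intensity units for replicates 1 to 4, against 1790 to 2354 on the control arrays. Levels below are therefore log2 of the signal relative to that percentile on the same array, and a negative difference means lower in 35S:WIN1. Between 58.9% and 65.4% of probes were well above background, and no spot was saturated. Each genotype had a slide of its own, so an effect of the slide and one of the genotype cannot be told apart anywhere below. A sample was several seedlings out of the many on a plate, and no label gives each sample its own plate. The p-values thus cover only differences among these samples, which may be technical. The WIN1 transcript was as the labels say: WIN1 (AT1G15360) lay between 3.85 and 5.62 on the 4 35S:WIN1 arrays. In the control it lay between -9.32 and -6.07, with 1 array of 4 above background. The log2 difference was 13.06 (limma, adjusted p = 2.88e-05). Since 3 control values were below background, the fold was also computed with the detection floor in their place, and came to 3836.

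The activase and the 5 enzymes after Rubisco were lower in 35S:WIN1, with log2 differences of -0.43 for RCA and from -0.94 to -1.26 for the enzymes, while none of the 4 small subunit genes passed the test in either direction, at -0.010 to 0.39. The call for the small subunits depended on the scaling: with arrays centred on spike-in RNAs all 4 were lower, and with quantile normalization 2 of the 4 were higher. The call for RCA depended on it too, and was lost with quantile normalization (limma, adjusted p = 0.214). Of the 10 genes, 6 were lower, 0 were higher and 4 did not pass (limma, Benjamini-Hochberg adjusted p under 0.05 over 20443 genes). Among all genes tested 20.2% were called lower and 15.1% higher. The median log2 difference was -0.68 for the 10 genes and -0.045 for all genes tested. All 10 probes were bright, and of the 473 other genes at least as bright as the dimmest of them 37.6% were called lower and 9.51% higher, with a median of -0.25. In RNA of whole seedlings, fewer green cells and less transcript per green cell cannot be told apart.

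**Figure D1:**
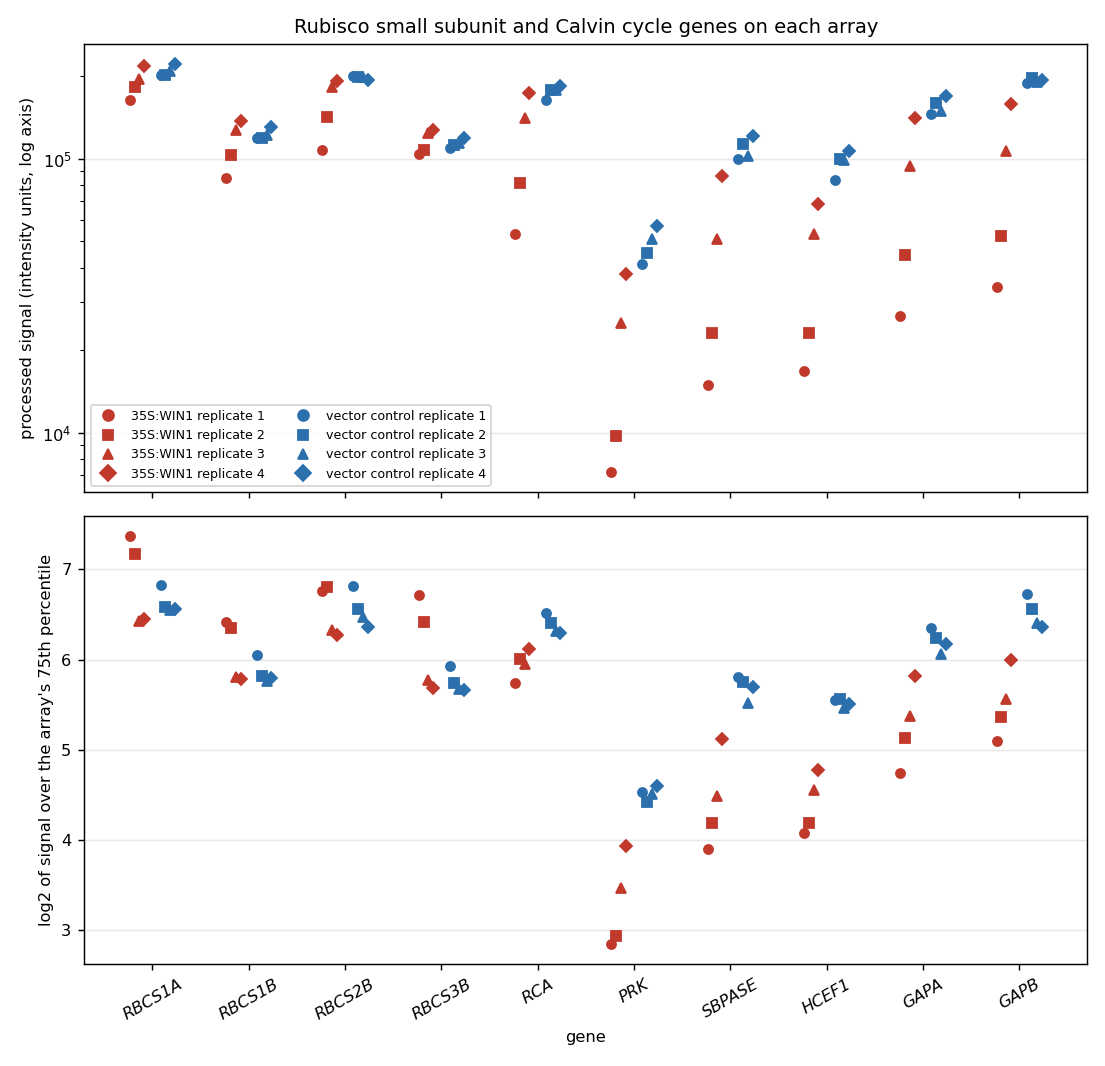
Processed signal in intensity units on a log axis (top) and the log2 of that signal over the array's 75th percentile (bottom) of the 10 genes, with 1 point per array (red, 35S:WIN1; blue, vector control; the marker gives the replicate). The signals of PRK, SBPASE, HCEF1, GAPA and GAPB lie lower on every 35S:WIN1 array than on every control array on both axes, whereas the groups overlap for the 4 small subunit genes on the lower axis; with spike-in centring all 4 small subunit genes were lower.

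RBCS1A (AT1G67090, chromosome 1), one of the main small subunit genes, gave signals of 164300, 182867, 195072 and 218016 on 35S:WIN1 replicates 1 to 4. In the control they were 202879, 201964, 209774 and 221454. Its raw signal was thus lowest on 35S:WIN1 replicates 1 and 2, but by less than those arrays as a whole were dimmer. Relative to the 75th percentile it stood at 7.36, 7.17, 6.42 and 6.45 in 35S:WIN1 and at 6.82, 6.58, 6.55 and 6.56 in the control. Replicates 1 and 2 of 35S:WIN1 were above every control array and replicates 3 and 4 were below every control array, so the groups overlapped. The means were 6.85 ± 0.49 (SD, n = 4) and 6.63 ± 0.13 (SD, n = 4), a log2 difference of 0.22 with a 95% interval from -0.30 to 0.75 (limma, adjusted p = 0.475).

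RBCS1B (AT5G38430), RBCS2B (AT5G38420) and RBCS3B (AT5G38410) encode further small subunits and lie close together on chromosome 5, with RBCS1B and RBCS2B next to each other in the order of the reference annotation. RBCS1B stood at 6.41, 6.35, 5.81 and 5.79 in 35S:WIN1 and at 6.05, 5.82, 5.77 and 5.79 in the control. Its log2 difference was 0.23 (limma, adjusted p = 0.336, 95% interval from -0.17 to 0.63). Replicates 1 and 2 of 35S:WIN1 were above all control arrays, as for RBCS1A, while replicates 3 and 4 lay among them.

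RBCS3B stood at 6.71, 6.41, 5.77 and 5.68 in 35S:WIN1 and at 5.93, 5.74, 5.68 and 5.66 in the control, with a log2 difference of 0.39 (limma, adjusted p = 0.223, 95% interval from -0.14 to 0.93). It had the highest difference of the 4, again carried by replicates 1 and 2, and the groups overlapped. RBCS2B stood at 6.76, 6.80, 6.33 and 6.27 in 35S:WIN1 and at 6.81, 6.56, 6.48 and 6.36 in the control, with a log2 difference of -0.010 (limma, adjusted p = 0.967, 95% interval from -0.39 to 0.37). Its groups overlapped, with 35S:WIN1 replicates 1 and 2 within the control range and replicates 3 and 4 below every control array. The intervals of the 4 genes allow a change of either sign, so a p above the threshold does not show equal levels. Small subunit genes are near-identical in parts of their coding sequence, and since no probe sequence was used here, signal shared between the 4 copies cannot be separated.

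The small subunit result changed with the choice of arrays and scale. With 35S:WIN1 replicates 1 and 2 as the only 35S:WIN1 samples, RBCS1A, RBCS1B and RBCS3B had log2 differences of 0.64, 0.52 and 0.81. This choice was made after the values were seen. Both arrays lay above every control array for these genes, so their calls as higher follow from the choice and are no separate evidence. Without those arrays the differences were -0.19, -0.064 and -0.024, none past the test. With quantile normalization RBCS1B and RBCS3B were called higher, at 0.36 and 0.56 (limma, adjusted p = 0.0236 and 0.0308). With each array centred on its spike-in RNAs, the log2 differences of RBCS1A, RBCS1B, RBCS2B and RBCS3B were -1.41, -1.41, -1.64 and -1.24, and all 4 were called lower. The spike-in median over the 75th percentile was 4.38, 4.29, 3.82 and 2.77 on the 35S:WIN1 arrays and 1.55 to 2.78 on the control arrays, and spike-in centring moved the median difference of all genes from -0.045 to -1.68. That centring moves the difference of every gene by the same amount.

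The small subunit probes sat near the top of the signal range. RBCS1A reached between 74.6% and 100% of the brightest non-control probe of its array, and the reading of all 4 probes came from the scanner's low-gain scan on 8 of 8 arrays. Between the dimmest and the brightest 35S:WIN1 array the raw signal differed 1.33-fold for RBCS1A, 1.62-fold for RBCS1B, 1.79-fold for RBCS2B and 1.23-fold for RBCS3B. It differed 3.25-fold for RCA, 5.28-fold for PRK, 5.82-fold for SBPASE, 4.06-fold for HCEF1, 5.26-fold for GAPA and 4.66-fold for GAPB. PRK and SBPASE were read from the low-gain scan on 6 of 8 arrays, not on 35S:WIN1 replicates 1 and 2. HCEF1 was read from it on 7 of 8, not on 35S:WIN1 replicate 1. The folds of PRK, SBPASE and HCEF1 thus compare readings of 2 scans. RCA, GAPA and GAPB were read from the low-gain scan on 8 of 8 arrays, so their folds compare readings of the same scan. An effect of the scan on the enzymes was not tested. Over all 53 probes with a mean signal above 100000, replicates 1 and 2 of 35S:WIN1 differed from replicate 4 by -1.23 and -0.73 (medians, log2 scale), against -1.32 and -0.97 for the 75th percentiles of these arrays. Control replicate 1 differed from control replicate 4 by -0.16 over the same probes, against -0.40 for the 75th percentiles. These brightest probes, the small subunit probes among them, thus differed less between arrays than the percentile used for scaling, in all 3 comparisons. Over the 161 probes with a mean signal of 50000 to 100000 the same medians were -1.40, -0.93 and -0.20. There it did not hold for 35S:WIN1 replicate 1. Of the 30 other genes at least as bright as the dimmest small subunit probe, 40% were called lower and 3.33% higher, with a median of -0.21. Whether the response of the small subunit probes was limited at these signals was not tested.

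RCA (AT2G39730), the activase that frees Rubisco of bound inhibitors, gave signals of 53355, 81639, 140522 and 173502 in 35S:WIN1 and 164104, 178363, 178983 and 185000 in the control. Relative to the 75th percentile it stood at 5.74, 6.01, 5.95 and 6.12, against 6.52, 6.40, 6.32 and 6.30. Every 35S:WIN1 array lay below every control array, which held for 20.3% of all genes tested. The means of 5.96 ± 0.16 and 6.38 ± 0.10 (SD, n = 4 each) gave a log2 difference of -0.43 with an SE of 0.11, a 1.35-fold lower level (limma, adjusted p = 0.0197). This call was lost in 8 of 23 alternatives, quantile normalization among them, at a log2 difference of -0.25 (limma, adjusted p = 0.214), while the direction was the same in all 23.

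**Figure D2:**
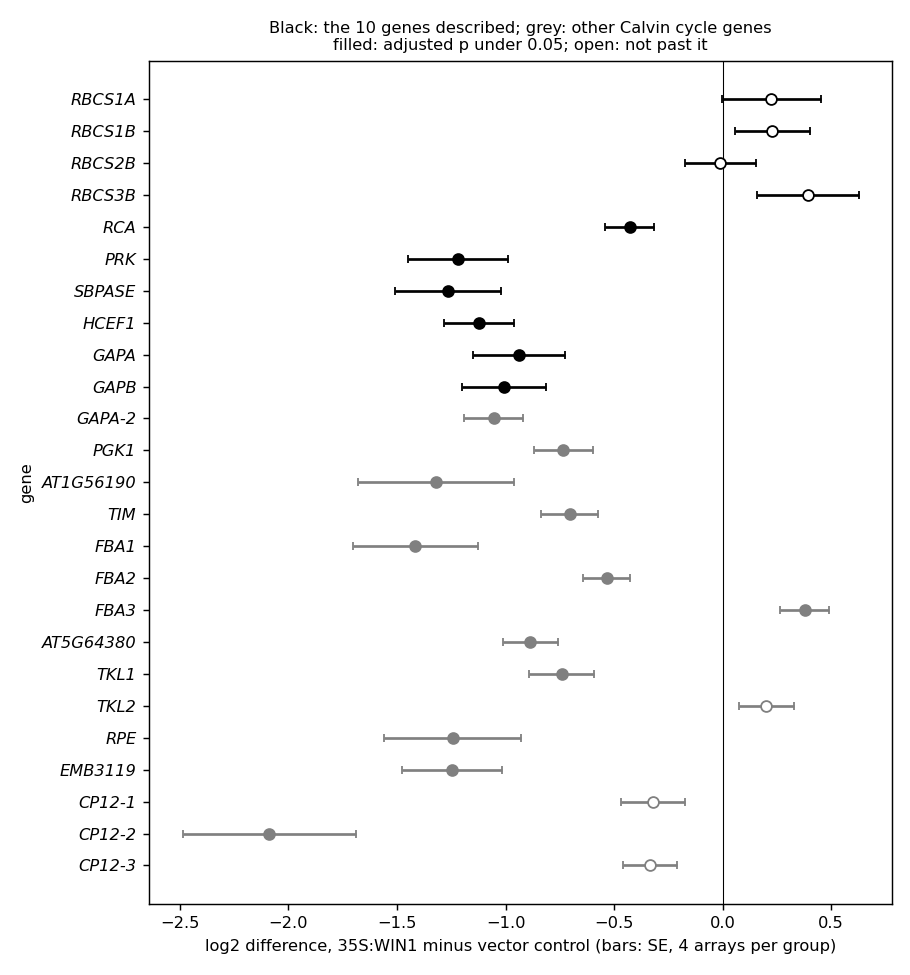
Log2 difference, 35S:WIN1 minus vector control, with its SE (bars, 4 arrays per group) for the 10 genes (black) and 15 other Calvin cycle genes (grey), where filled circles passed an adjusted p of 0.05. RCA and the 5 enzymes lie to the left of 0 and 4 open circles mark the small subunit genes; with spike-in centring those 4 were also lower and FBA3 changed sign.

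PRK (AT1G32060), the phosphoribulokinase that makes the acceptor of carbon dioxide as the last step of its regeneration, gave signals of 7204, 9738, 25118 and 38009 in 35S:WIN1 and 41386, 45184, 51142 and 56930 in the control. Relative to the 75th percentile these were 2.85, 2.94, 3.47 and 3.93, against 4.53, 4.42, 4.51 and 4.60. The groups did not overlap, and the control arrays lay closer together than the 35S:WIN1 arrays. The means were 3.30 ± 0.50 and 4.52 ± 0.071 (SD, n = 4 each), a log2 difference of -1.22 with an SE of 0.23, or 2.33-fold lower (limma, adjusted p = 0.00533).

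SBPASE (AT3G55800), the sedoheptulose bisphosphatase of the regeneration phase, stood at 3.91, 4.18, 4.49 and 5.13 in 35S:WIN1, with raw signals of 14936, 23077, 51165 and 86941, and at 5.81, 5.75, 5.52 and 5.69 in the control, with raw signals of 100213, 113473, 102541 and 121634. All 4 arrays of 35S:WIN1 were below the control, and replicate 4 was nearest to it. The means of 4.43 ± 0.52 and 5.69 ± 0.13 (SD, n = 4 each) gave a log2 difference of -1.26 with an SE of 0.24, the largest fall of the 10 genes, at 2.40-fold (limma, adjusted p = 0.00570).

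HCEF1 (AT3G54050) encodes the chloroplast fructose bisphosphatase, which works in regeneration and supplies starch synthesis. Its signals were 16830, 23220, 53370 and 68266 in 35S:WIN1 and 83989, 99725, 98843 and 107301 in the control. Relative to the 75th percentile it stood at 4.08, 4.19, 4.55 and 4.78, against 5.55, 5.57, 5.46 and 5.51. The control values were tight and the 35S:WIN1 values all below them. The means of 4.40 ± 0.32 and 5.52 ± 0.046 (SD, n = 4 each) gave a log2 difference of -1.12 with an SE of 0.16, or 2.18-fold lower (limma, adjusted p = 0.00159), the smallest adjusted p of the 10 genes.

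GAPA (AT3G26650) and GAPB (AT1G42970) encode the subunits of the chloroplast glyceraldehyde phosphate dehydrogenase, which spends the reducing power of the light reactions. GAPA stood at 4.75, 5.13, 5.38 and 5.82 in 35S:WIN1 and at 6.35, 6.24, 6.07 and 6.17 in the control. Its log2 difference was -0.94 with an SE of 0.21, or 1.92-fold lower (limma, adjusted p = 0.0115). GAPB stood at 5.10, 5.36, 5.56 and 5.998, against 6.72, 6.55, 6.41 and 6.36. Its log2 difference was -1.01 with an SE of 0.19, or 2.01-fold lower (limma, adjusted p = 0.00561). For both subunits the 35S:WIN1 arrays lay below all control arrays, with replicate 1 lowest and replicate 4 highest, as for the 3 regeneration enzymes.

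PRK, SBPASE, HCEF1 and GAPB kept their calls in all 23 alternatives, and GAPA in 22. Their size varied between arrays of 35S:WIN1. The median of the 10 genes against the control mean was -1.03, -0.73, -0.63 and -0.33 on replicates 1 to 4, and -0.078 to 0.16 on the control arrays. Replicates 1 and 2 were also the dimmest arrays and replicate 4 the brightest. On both slides the replicate number was the position on the slide, and the 75th percentile rose with it. Without the dim pair the 5 enzymes were still called lower, and the median of the 10 genes was -0.48.

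**Figure D3:**
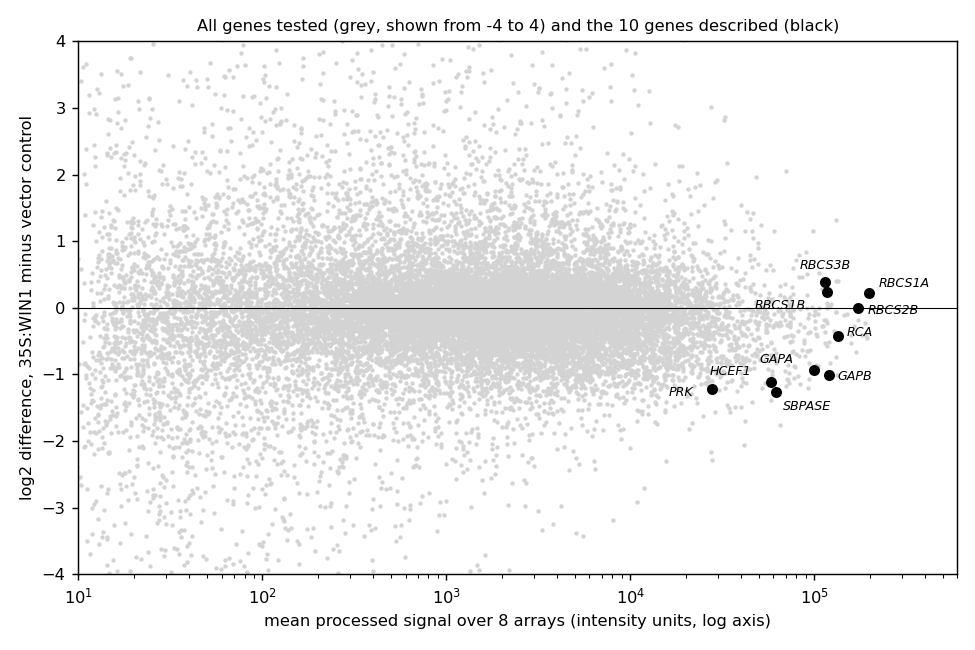
Log2 difference, 35S:WIN1 minus vector control, against the mean processed signal over 8 arrays (intensity units, log axis) of the genes tested (grey, shown from -4 to 4 and from 10 intensity units upward) and the 10 genes (black). The 10 genes lie at the bright end, with PRK the dimmest, the 5 enzymes near -1 and the small subunit genes near 0; with spike-in centring the small subunit genes were lower too.

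Ratios of 2 probes within an array do not depend on scaling between arrays, and 8 were compared with exact two-sided permutation tests over the samples, for which 0.0286 is the smallest p that 70 arrangements of 4 against 4 allow. None passed after Benjamini-Hochberg adjustment over the 8. RCA over RBCS1A was -1.62, -1.16, -0.47 and -0.33 on the log2 scale in 35S:WIN1 and -0.31, -0.18, -0.23 and -0.26 in the control, lower on every 35S:WIN1 array by a mean of -0.65 (exact p = 0.0286, adjusted 0.0762). The gap came mostly from replicates 1 and 2, without which the difference was -0.16. RBCS3B over RBCS1A was higher in 35S:WIN1 on all 4 arrays, at -0.66, -0.76, -0.65 and -0.77 against -0.89, -0.85, -0.87 and -0.90, a difference of 0.17 (exact p = 0.0286, adjusted 0.0762).

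The other small subunit ratios overlapped between groups, with differences of 0.0047 for RBCS1B over RBCS1A (exact p = 1) and -0.24 for RBCS2B over RBCS1A (exact p = 0.0857, adjusted 0.171). For the subunits of the chloroplast dehydrogenase, GAPB over GAPA differed by -0.070 (exact p = 0.286, adjusted 0.327). SBPASE over HCEF1, the pair of stromal bisphosphatases, differed by -0.14 (exact p = 0.286, adjusted 0.327). GAPC1, a cytosolic glycolytic dehydrogenase, was -1.29, -1.31, -2.01 and -2.34 relative to GAPA in 35S:WIN1 and -3.07, -2.67, -2.87 and -2.38 in the control. The ratio was higher on each 35S:WIN1 array, by a mean of 1.01, or 2.02-fold (exact p = 0.0286, adjusted 0.0762), and by 0.57 without replicates 1 and 2. The cytosolic fructose bisphosphatase cFBP over its chloroplast counterpart HCEF1 differed by -0.19 (exact p = 0.257, adjusted 0.327). Apart from RCA over RBCS1A, the difference between a small subunit gene and an enzyme that fell was not tested.

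**Figure D4:**
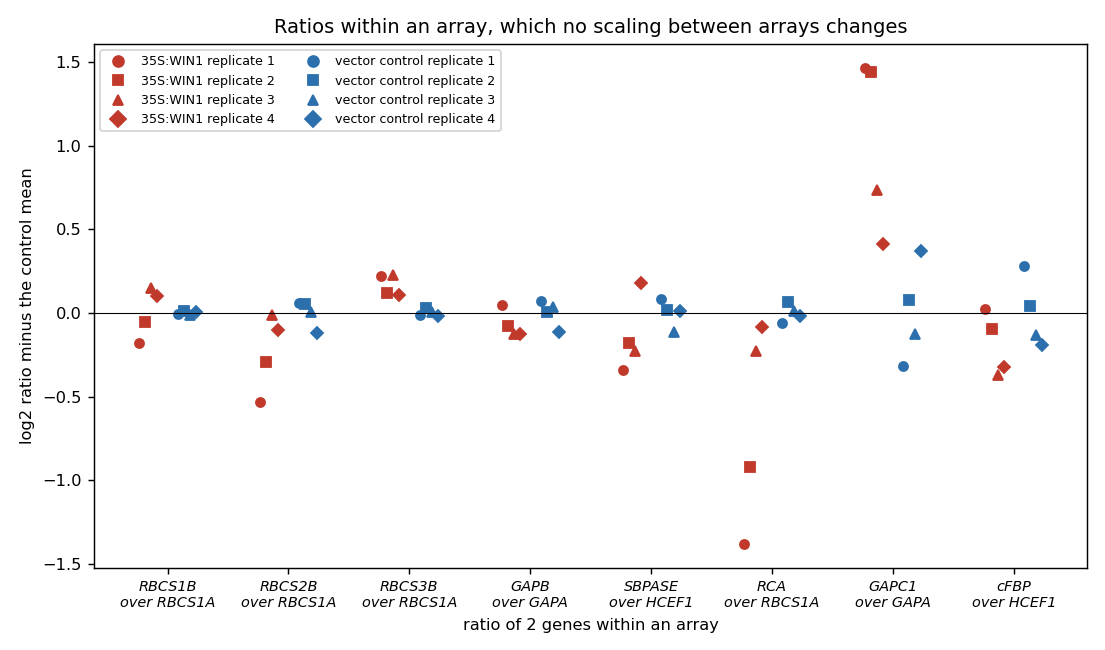
Log2 ratio of 2 genes on each array minus the mean of that ratio in the control (red, 35S:WIN1; blue, vector control; the marker gives the replicate). The groups are apart for RBCS3B over RBCS1A, RCA over RBCS1A and GAPC1 over GAPA, and overlap for the other ratios; the smallest adjusted p was 0.0762.

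Most other genes of the cycle were lower too. Of 15 other Calvin cycle genes with a probe that was tested, 11 were lower, 1 was higher and 3 did not pass, with a median log2 difference of -0.74. Among all genes tested 20.2% were lower and 15.1% higher. The chloroplast gene of the large subunit, rbcL, had no probe. CP12-2, a small protein that binds GAPDH and PRK in the dark, stood at -1.67, -1.45, -1.03 and 0.088 in 35S:WIN1 and at 1.65, 1.25, 0.60 and 0.78 in the control, a 4.25-fold fall (log2 difference -2.09, SE 0.40, limma, adjusted p = 0.00556). It fell on every array and was the largest fall on the list. CP12-1 and CP12-3 had differences of -0.32 and -0.33 and did not pass (limma, adjusted p = 0.122 and 0.0706).

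In the reduction phase, the second A subunit gene GAPA-2 was lower, with a log2 difference of -1.05 (limma, adjusted p = 0.00101), as were PGK1, a chloroplast phosphoglycerate kinase, at -0.73, and AT1G56190, on the same list, at -1.32, although the groups of the last overlapped. The call of AT1G56190 was lost in 6 of 23 alternatives (limma, adjusted p up to 0.115), among them the omission of replicate 1 or 2 of 35S:WIN1 and of replicate 2, 3 or 4 of the control. In regeneration, TIM, the plastid triose phosphate isomerase, was at -0.70 and the transketolase gene TKL1 at -0.74. The ribulose phosphate epimerase gene RPE was at -1.24, EMB3119 at -1.25 and AT5G64380 at -0.89, all past the test. TKL2, a second transketolase gene, had a difference of 0.20 and did not pass (limma, adjusted p = 0.252).

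The plastid aldolase genes parted. FBA1 fell, with a log2 difference of -1.42, and FBA2 fell, at -0.53, while FBA3 rose by 0.38 (limma, adjusted p = 0.0342), a direction that turned with spike-in centring, to -1.26, and on the deposited values as given, to -0.022. FBA3 stood at 4.01, 4.18, 4.09 and 3.82 in 35S:WIN1 and at 3.51, 3.76, 3.59 and 3.73 in the control. All 35S:WIN1 arrays were above the control, which held for 15.4% of genes, but the nearest arrays almost met. Its call was also lost without any 1 of 7 arrays, and kept without 35S:WIN1 replicate 4.

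Genes that serve the cycle were also lower. Their counts are to be read against the 20.2% of all genes tested that were called lower. Among the 473 other genes at least as bright as the dimmest of the 10 genes, it was 37.6%. Of 8 genes of Rubisco folding and assembly 7 were lower, with a median of -0.82, among them the chaperone gene RBCX1 at -1.08, AT5G51110 at -0.85 and AT3G04550 at -0.76. Without 35S:WIN1 replicates 1 and 2 the count was 3 of 8, as on the deposited values as given. All 6 genes of the thioredoxin system that switches cycle enzymes on in the light were lower, with a median of -0.90. On the deposited values as given 4 of the 6 were. TRXF1, an f-type thioredoxin, was at -1.08, the m-type gene THM1 at -1.19 and AT2G04700 at -0.92. The 10 tested genes of photorespiration, which recycles the product of Rubisco's reaction with oxygen, were lower too, with a median of -1.08. That count was 7 without 35S:WIN1 replicates 1 and 2, and 8 on the deposited values as given. GOX2, a glycolate oxidase gene, was at -1.17, AT1G80380 at -0.94 and LrgB at -1.74. PGLP1 had no probe. GGT1 lacked a value on 1 array and passed narrowly (limma, adjusted p = 0.04996).

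Downstream of the cycle, 6 of 7 genes of triose phosphate export, sucrose and starch synthesis and carbonic anhydrase were lower, against 20.2% of all genes tested. Their median was -1.04. The cytosolic fructose bisphosphatase cFBP was at -1.32 (limma, adjusted p = 5.84e-04), the exporter TPT at -0.76 and the carbonic anhydrase gene CA2 at -0.86. On the deposited values as given 3 of the 7 were lower. The cytosolic glycolytic counterparts had a median of -0.13. Of those 7, 0 were lower and 1 was higher, where 20.2% and 15.1% of all genes tested were. The higher gene was FBA6, at 0.38 (limma, adjusted p = 0.0170). It turned to -1.26 with spike-in centring and -0.025 on the deposited values as given, and lost its call without 35S:WIN1 replicates 1 and 2. GAPC2 and CTIMC, at -0.30 and -0.16, did not pass (limma, adjusted p = 0.0915 and 0.285).

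**Figure D5:**
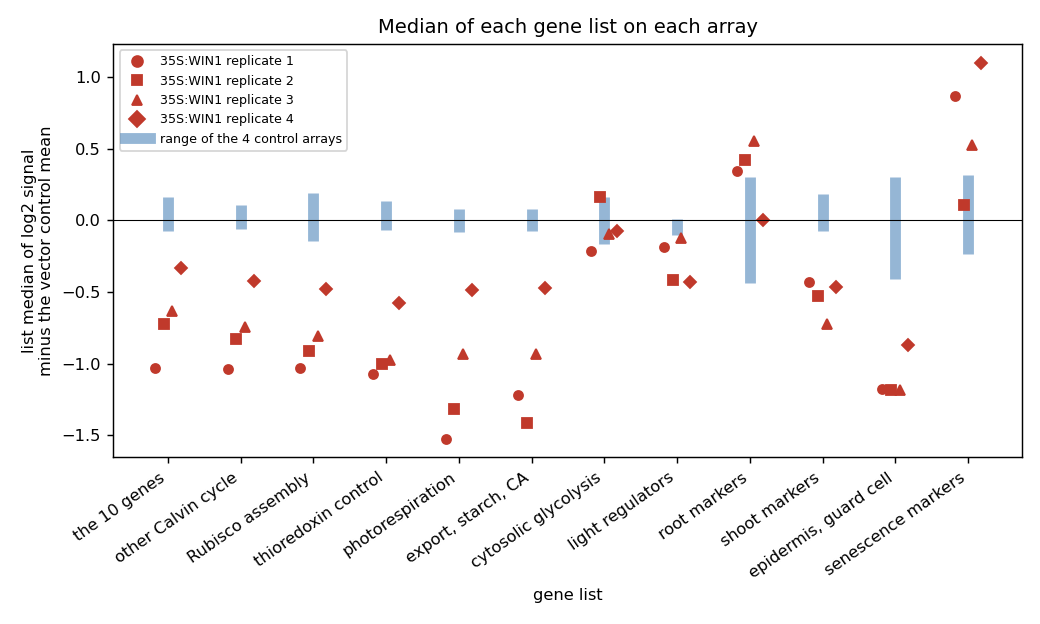
Median over the genes of each list of the log2 level minus the control mean, on each 35S:WIN1 array (red, the marker gives the replicate) and as the range over the 4 control arrays (blue bars). The 10 genes, the other Calvin cycle genes, Rubisco assembly, thioredoxin control, photorespiration and export lists lie below the control range on every 35S:WIN1 array. So do the light regulator, shoot marker, and epidermis and guard cell lists. The senescence list lies above the control range on 3 of 4 arrays, but its median turned to -0.90 with spike-in centring.

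Among 9 regulators of light response and greening, 3 were lower and 1 was higher, with a median of -0.18, where 20.2% and 15.1% of all genes were. Without 35S:WIN1 replicates 1 and 2 the count was 1 lower and 1 higher, and without replicate 4 it was 4 lower and 2 higher. GLK1, an activator of chloroplast genes, was lower, at -1.36 (limma, adjusted p = 0.0104), as was HYH, a relative of the light-signalling factor HY5, at -1.33 (limma, adjusted p = 0.0173), a call lost without 35S:WIN1 replicates 1 and 2. PIF3, a factor that phytochrome removes in the light, rose by 1.41 (limma, adjusted p = 1.12e-04), and turned to -0.22 with spike-in centring. 

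Markers of the tissues in a whole seedling are given beside these falls, and their part in them was not tested. Their counts are to be read against the 20.2% of all genes called lower and the 15.1% called higher. Of 8 shoot markers outside the 10 genes 4 were lower and 0 higher, with a median of -0.61, among them CHLI1 at -0.93, PORC at -0.78 and PSAD-1 at -0.53, and on the deposited values as given 2 were lower. Their summed level ran from 7.79 to 8.16 in 35S:WIN1 and from 8.11 to 8.49 in the control, on the log2 scale over the 75th percentile. Of 10 root markers 3 were higher and 2 lower, with a median of 0.26 and summed levels of 2.71 to 3.13 against 2.60 to 2.87. The count of higher root markers was 0 without 35S:WIN1 replicates 1 and 2 together, and without any 1 of 35S:WIN1 replicates 2 and 3 and vector control replicates 1, 2 and 3. It was 1 without 35S:WIN1 replicate 1, and 0 on the deposited values as given and with spike-in centring. PLT2, of the root stem cell niche, was at 1.34, with overlapping groups, lost its call in 9 of 23 alternatives and turned to -0.29 with spike-in centring. The nitrate transporter gene NRT2.1 and the iron transporter gene IRT1, each detected above background on 2 of the 4 35S:WIN1 arrays, were lower by 12.4-fold and 11.2-fold with dim values raised to the detection floor, folds that rest in part on that floor. The groups overlapped for IRT1, and its call was lost in 10 of 22 alternatives (limma, adjusted p up to 0.201).

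Of 6 markers of epidermis and guard cells 5 were lower, with a median of -1.13 and summed levels of 3.13 to 3.44 against 3.33 to 4.003. Without 35S:WIN1 replicates 1 and 2 the count was 2 of 6. GL2, a factor of epidermal cell fate, was at -2.26, the guard cell factor MYB60 at -1.21 and PDF1 at -1.06. PDF1 was no longer called without those replicates. Of 7 senescence markers 3 were higher and 0 lower, with a median of 0.73 and summed levels of 3.83 to 4.73 against 2.84 to 3.11. ORE1, a NAC factor of leaf senescence, rose by 3.45 (limma, adjusted p = 2.84e-05) and SAG13 by 3.20 (limma, adjusted p = 0.0278). SAG13 stood at 0.89 on 35S:WIN1 replicate 4 and at -3.53 to -2.63 on the other arrays of that group, and without replicate 4 the difference was 2.19. Its call was lost in 4 of 23 alternatives, among them leaving out vector control replicate 1, 2 or 4. PPH, a pheophytin hydrolase of chlorophyll breakdown, rose by 0.73 (adjusted p = 0.00335) but was at -0.90 with spike-in centring. SAG12, the defining marker of late leaf senescence, was above background on 2 of 4 arrays in each group.

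Outside the 10 genes, the profiles nearest to their median centred profile were looked for by Euclidean distance over the 8 arrays. They were AT3G25805 at a distance of 0.100, TIM at 0.110, the dehydroascorbate reductase gene DHAR3 at 0.126, UTr7 at 0.128 and AT5G59250 at 0.131. The 10 genes themselves lay at 0.417 (RCA) to 1.97 (RBCS3B), with the enzymes at 0.535 (GAPA) to 0.978 (SBPASE) and the small subunits from 1.28 (RBCS2B) upward. Their median profile thus lay nearer to RCA and the enzymes than to the small subunits, and none of the 10 genes was as near to it as the genes just named. AT3G25805 stood at -0.17, 0.025, 0.089 and 0.31 in 35S:WIN1 and at 0.89, 0.85, 0.70 and 0.69 in the control.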

How the data were processed

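Total RNA (1 µg) was labelled with Cy3 and hybridised to 1-colour Agilent arrays, and the authors' scanner files were made with Agilent Feature Extraction, which the submitters' processing notes give as version 9.1.3.1. The deposited processed signal is, per the file headers, a linear intensity, corrected for background and not scaled between arrays. The deposited series table is the same intensity divided by 1341 on the 35S:WIN1 slide and by 1312 on the control slide, within 0.0137%. Its column medians were 0.0464, 0.0588, 0.114 and 0.125 for 35S:WIN1 and 0.0853, 0.111, 0.112 and 0.126 for the control. Its scale is thus linear and uncentred, and the sources used here do not give the origin of the divisors.

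From the deposited intensity, log2 values minus each array's 75th percentile over non-control spots were computed. Of 37478 probes 26236 are named by a locus. Each locus was represented by its brightest probe on average, if that was well above background on 4 or more of the 8 arrays (20445 genes, of which 20443 were tested and 20326 are in the TAIR10.1 reference table used for names). Spots with feature outlier marks were left out, and the 10 genes had none. They had 6 spots with background outlier marks, which were kept. Groups were compared with limma 3.58.1 in R 4.3.3 (lmFit and eBayes, two-sided, Benjamini-Hochberg adjusted, threshold 0.05), and ratios by exact permutation. On simulated arrays of 20443 genes the comparison (35S:WIN1 against vector control) recovered 12% of 50 genes changed 1.5-fold, 52% of those changed 2-fold, 86% at 4-fold and 92% at 8-fold, and 4.72% of its calls were false. Only 200 genes were changed in the simulation, whereas 35.3% of all genes tested were called in the data. The recovery in these data may thus differ. The number of arrays limits the precision.

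The 10 genes, and 11 further lists of 95 genes (93 tested), were chosen with earlier results of these data known, so counts over them are descriptions and not independent evidence. Named are the 10 genes, the other Calvin cycle genes, the 3 genes of each further list with the smallest p, and the 5 nearest profiles. SAG12, PGLP1, GGT1 and GAPC1 were named outside this rule, the first 3 after their values were seen and GAPC1 as part of a ratio.

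Alternatives were other scalings and background correction (normexp with an offset of 50, on the median spot signal, since a mean spot signal was not used here), filters, variance models, the replicate number as a block and samples left out. A slide block could not be fitted, since each slide holds 1 group. The ratio of rbcL to RBCS1A was not computed, as rbcL had no probe.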

Additional observations from a re-analysis of the deposited data

Results flagged for a closer look

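Of 134 groups of 4 arrays, over genes named here and the within-array ratios, 3 were marked. In these, an array's gap to the nearest other array exceeded Dixon's 95% critical value for its share of the group's range. Chance marks about 1 in 20 groups. RBCS1A on vector control replicate 1 stood at 6.82, against 6.55 to 6.58 on the other control arrays. That array was the dimmest of the controls by its 75th percentile. AT5G51110 on 35S:WIN1 replicate 4 stood at 3.36, against 3.01 to 3.04 on the other arrays of its group, and was nearest to the control there. UTr7 on vector control replicate 1 stood at -0.89, against -1.10 to -1.07.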

How the results depend on the processing

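Over 23 alternatives, PRK, SBPASE, HCEF1 and GAPB kept direction and call. GAPA lost its call on the deposited values as given (limma, adjusted p = 0.0536), and RCA in 8 alternatives (limma, adjusted p from 7.33e-04 to 0.214 over all 23). With quantile normalization 2 of the 10 genes were called higher, both small subunit genes. RBCS2B turned to 0.17 there, 0.027 with median centring and 0.17 with cyclic loess, and CTIMC to 0.066 with quantile normalization. Spike-in centring gave 17160 genes lower and 402 higher, 10 of the 10 genes and 4 of 4 small subunit genes lower, 0 other Calvin cycle genes higher, and medians of -2.32 for the 10 genes and -2.38 for the other Calvin cycle genes. There RBCS1A, RBCS1B and RBCS3B were at -1.41, -1.41 and -1.24, FBA3, TKL2 and FBA6 at -1.26, -1.43 and -1.26, and PIF3, PLT2 and PPH at -0.22, -0.29 and -0.90. The deposited values as given called 2088 genes lower and 905 higher, against 4138 and 3078, and 7 other Calvin cycle genes lower and 0 higher, with medians of -1.08 and -1.14. RBCS1A, RBCS1B, RBCS3B, FBA3, TKL2 and FBA6 were then at -0.18, -0.17, -0.0066, -0.022, -0.20 and -0.025. With no filter on dim probes 0 other Calvin cycle genes were higher.

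With replicates 1 and 2 of 35S:WIN1, the dimmest arrays, both left out, 2367 genes were lower and 1951 higher, 0 other Calvin cycle genes were higher, and RBCS1A, RBCS1B and RBCS3B were at -0.19, -0.064 and -0.024. The ratios became 0.13 for RBCS1B over RBCS1A, -0.059 for RBCS2B over RBCS1A, -0.16 for RCA over RBCS1A and 0.57 for GAPC1 over GAPA. Leaving out 35S:WIN1 replicates 3 and 4 together was tried after seeing the data, as were cyclic loess and the ratios without the dimmest arrays. RBCS1A, RBCS1B and RBCS3B were then called higher, which follows from keeping the arrays on which they lay above every control array. RBCS2B was at 0.23 there.

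With 1 array left out at a time, 2983 to 4628 genes were lower and 2272 to 3707 higher, 5 to 6 of the 10 genes lower and 0 higher, 10 to 11 other Calvin cycle genes lower and 0 to 1 higher. Medians ran from -0.80 to -0.56 for the 10 genes and from -0.87 to -0.65 for the other Calvin cycle genes. RBCS2B was at 0.059 without 35S:WIN1 replicate 3, 0.079 without replicate 4 and 0.075 without vector control replicate 1. RCA lost its call without 35S:WIN1 replicate 3 and without vector control replicates 1 or 2. The ratio of RCA to RBCS1A ran from -0.84 to -0.41, RBCS2B to RBCS1A from -0.31 to -0.14, RBCS1B to RBCS1A from -0.044 to 0.067, RBCS3B to RBCS1A from 0.15 to 0.19, GAPB to GAPA from -0.11 to -0.047, SBPASE to HCEF1 from -0.25 to -0.076, GAPC1 to GAPA from 0.86 to 1.21 and cFBP to HCEF1 from -0.26 to -0.10. These were computed as values only, without a test.

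Same-numbered samples of the groups correlated in their deviations at -0.036, 0.063, 0.14 and 0.041. Such values do not show a pairing by number, and so few arrays cannot exclude one. Same-numbered arrays also held the same position on their slides. With the replicate number as a block, 3458 genes were lower and 2583 higher, 5 of the 10 genes were lower, RCA not among them (limma, adjusted p = 0.0664), and 0 other Calvin cycle genes were higher. The causes of these changes were not tested. Levels near the detection floor, as for NRT2.1, IRT1 and SAG12, are limited by signal over background.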
